A study of Mus musculus with 12 samples.

Results

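The baseline transcriptome of cultured mouse pancreatic islets was described from the libraries of islets given vehicle alone. Of the 12 messenger RNA sequencing libraries of the study, 3 carry that label, and all 3 were taken, whatever their values. The other groups, islets given vehicle with the complement fragment C3a, palmitate, or palmitate with C3a, were not analysed here, and no effect of a treatment was estimated. The islets came from male wild-type mice aged 10 to 12 weeks and were cultured in lots of about 120. Neither palmitate nor C3a was added to these cultures. What the vehicle was, how long the culture lasted and the mouse strain are not given in the labels. Nothing in the labels states that each of the 3 libraries is its own animal or culture, and the spread between them may therefore be partly technical. Vehicle replicate 1 was sequenced in batch 1 and vehicle replicates 2 and 3 in batch 2, so replicate 1 and its batch cannot be told apart.

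Islets are clusters of endocrine cells scattered through the exocrine pancreas. Beta cells make insulin and amylin, alpha cells glucagon, delta cells somatostatin and PP cells pancreatic polypeptide, and each hormone is cut from a larger precursor and stored in dense granules. Isolated islets also hold endothelial cells, fibroblasts, pericytes, resident macrophages and, depending on how cleanly they were picked, acinar and duct cells that remain attached. Beta cells keep their identity through a small set of transcription factors, among them Pdx1, Mafa, Nkx6-1 and Nkx2-2, and sense glucose through steps that include the transporter Slc2a2 and the ATP-sensitive potassium channel.

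The libraries held 24408023, 49375454 and 42650415 estimated counts for replicates 1, 2 and 3. A gene at 1 CPM, counts scaled to the library total, had 24.25 counts in replicate 1, for a counting error of 20.3%, against 14.3% in replicate 2 and 15.4% in replicate 3. CPM gives the share of the sequenced fragments and grows with transcript length. TPM divides by annotated length before scaling, so that levels of different genes can be compared. CPM values below carry edgeR's TMM scaling between libraries. Replicate 1 stood apart: gene counts differed from replicate 2 by a chi-squared of 68.8 per degree of freedom and from replicate 3 by 55, while replicates 2 and 3 differed by 13.1. All 4 Y-linked genes on the list were detected in every library (summed 90.7, 109 and 100.2 TPM).

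Hormone messages were the largest class of transcripts described here. The 8 islet hormone genes took 50.03%, 43.9% and 44.3% of TPM in replicates 1, 2 and 3, or 46.1% ± 3.45 (SD, n = 3). The insulin genes Ins2 and Ins1 alone held 37.4% ± 2.74 of TPM. Ins2 was the most abundant message of all, with 340950, 290400 and 289440 TPM. Ins1 followed with 64317, 68665 and 67143 TPM. On the TPM scale replicate 1 was highest for Ins2 and lowest for Ins1. The glucagon gene Gcg came next with 51437, 34906 and 38667 TPM, and here too replicate 1 was the highest library. Iapp, which encodes amylin, the peptide stored with insulin, followed with 33261, 35168 and 36507 TPM.

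The pancreatic polypeptide gene Ppy (4457, 3362 and 4070.1 TPM), the somatostatin gene Sst (3178, 2867 and 3389.8 TPM) and the peptide YY gene Pyy (2666, 3154 and 3484 TPM) were lower. The ghrelin gene Ghrl was by far the lowest of the hormone genes, at 12.3, 12.8 and 6.56 TPM. Set against Sst within each library, Gcg was 16.2, 12.2 and 11.4 times as abundant on the TPM scale. Of the 8 hormone genes, 7 had their highest CPM in replicate 1, where 40.9% of all 13377 genes with a mean of at least 1 CPM had theirs, and no hormone gene differed by 2-fold or more between 1 library and both others. That count rests on the scale. By TPM only Ins2, Gcg and Ppy were highest in replicate 1, while Ins1, Iapp and Pyy were lowest there. Iapp was nearly level in CPM, at 20026, 19595 and 20020. The largest spread among the abundant hormones was that of Gcg, with a coefficient of variation of 25.9% in CPM, and the smallest that of Iapp with 1.24%. These are whole-islet sums, in which fewer cells of a type and less RNA per cell cannot be told apart.

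Mice carry 2 insulin genes, and their messages resemble each other closely where the hormone is encoded. Ins1 lies at chr19:52264297-52265476 on the forward strand and Ins2 at chr7:142678656-142743381 on the reverse strand (GRCm38, GENCODE M21 gene spans). The coding sequences of the transcripts Ins1-201 and Ins2-204 were identical at 302 of 333 aligned positions (90.7%), and the longest run that both share, 56 bases, sits at the end of the coding sequence. That stretch is shown because reads that fall inside it cannot be assigned to 1 of the 2 genes. Capitals mark the shared run, and the lower-case letters before and after it the neighbouring bases, read from the GENCODE M21 transcripts.
Ins1: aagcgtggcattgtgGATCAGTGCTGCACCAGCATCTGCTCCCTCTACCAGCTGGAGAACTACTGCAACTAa
Ins2: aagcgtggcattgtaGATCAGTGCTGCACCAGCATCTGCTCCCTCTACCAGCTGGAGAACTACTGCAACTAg
Counted in windows of 31 bases, 47 were found in both transcripts, 11.1% of those of Ins2 and 4.55% of those of Ins1. Gcg, Iapp, Sst, Ppy and Pyy shared 0 such windows with any other gene.

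The rank of Ins2 over Ins1 did not depend on length, but its size did. In counts, Ins2 exceeded Ins1 by 2.32, 1.85 and 1.88 times, and in TPM by 5.30, 4.23 and 4.31 times. The difference follows from the annotated lengths, since Ins1-201 spans 1062 bases, 526 of them after the coding sequence, and Ins2-204 spans 455 bases, 52 of them after it. With Ins1 given the length of Ins2-204, an alternative added after the data were seen, the insulin genes held 42.5% of TPM in place of 37.4%. As a share of counts they held 14.5%, and all 8 hormone genes 19.8%.

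**Figure D1:**
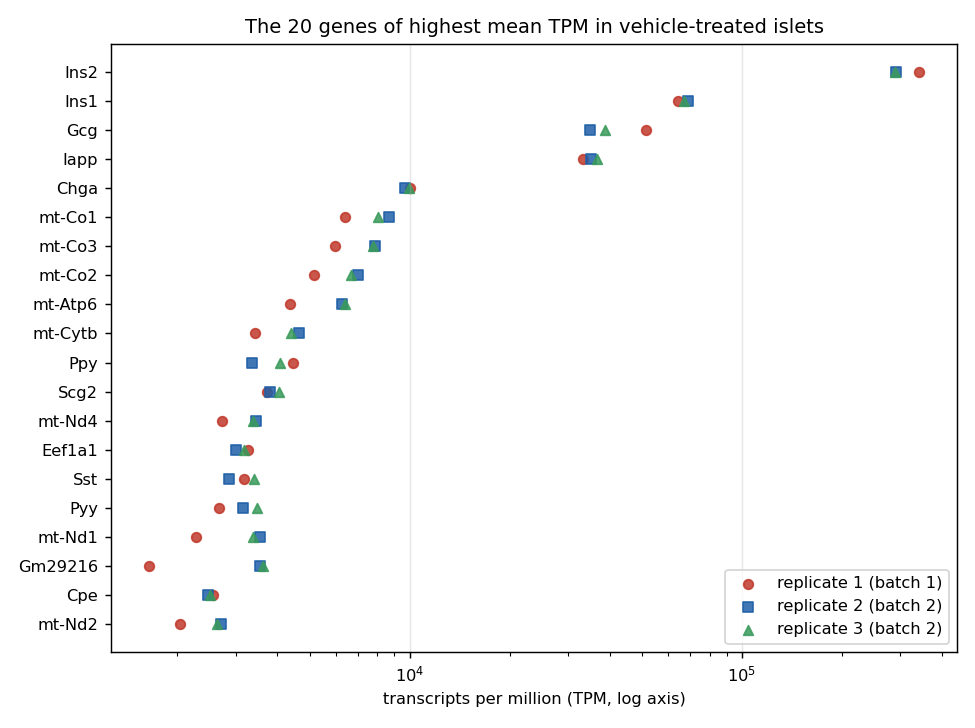
TPM on a log axis for the 20 genes of highest mean TPM, 1 point per library, replicate 1 as circles, replicate 2 as squares and replicate 3 as triangles. Ins2 stands alone at 289440 TPM or more, and the mitochondrial genes and Gm29216 have their lowest point in replicate 1.

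Below the hormones came the granule proteins and the mitochondrial messages. Chga, which encodes the granule protein chromogranin A, ranked 5 with 10028, 9701 and 9979.5 TPM. Scg2, which encodes secretogranin II, had 3731, 3798 and 4049 TPM and Cpe, the carboxypeptidase that trims prohormones, 2552, 2481 and 2507 TPM. The convertase gene Pcsk2 ranked 25 by TPM and 8 by CPM, with 1979, 1772 and 1773 TPM. All 25 genes of the granule and prohormone processing list reached 1 TPM in every library, with a median of 466 TPM. The list's summed TPM varied by 4.09% (coefficient of variation) between libraries, but Pcsk1n, which encodes a granule peptide precursor that inhibits Pcsk1, did not follow it: 125, 765 and 841 TPM, at least 2-fold lower in replicate 1 than in both others.

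The 13 protein genes of the mitochondrial genome held 4.11%, 5.14% and 4.98% of TPM. Of the 20 highest genes, 8 were mitochondrial, led by mt-Co1, a subunit of cytochrome oxidase, with 6398, 8653 and 8014 TPM. Replicate 1 was the lowest library for each of those 8. Gm29216, a predicted gene of 492 bases that ranked 18, shares an exact run of 479 bases with mt-Co1, so its 1644, 3545 and 3614 TPM cannot be separated from that gene. Pseudogenes also hold 100% of the 31-base windows of mt-Co2 and 99.9% of those of mt-Co3. The 77 ribosomal protein genes held 3.04% ± 0.0895 of TPM, with the libraries at 2.94%, 3.06% and 3.12%.

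Few genes carried most of the RNA. The 10 highest genes held 49.1% ± 2.96 of TPM and the 1000 highest 76.8% ± 1.13. In replicate 1, 6 genes sufficed for 50% of TPM, against 18 and 17 genes in replicates 2 and 3. By counts the distribution was flatter, and 478, 540 and 562 genes were needed. The scales also rank genes differently: short ribosomal protein messages gained from CPM to TPM, such as Rpl36 (rank 2016 by CPM, 174 by TPM), and long ones lost, such as the dynein heavy chain gene Dync1h1 (rank 178 by CPM, 2242 by TPM).

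At a threshold of 1 TPM, 12294 genes were detected in all 3 libraries, of which 12034 were protein-coding and 215 pseudogenes. A further 384 genes passed in 2 libraries and 729 in 1 library. Of these 729, 521 passed in replicate 1 alone, 117 in replicate 2 alone and 91 in replicate 3 alone. Replicate 1 had the fewest counts of the 3.

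Beta cell identity genes were all present: the 24 on the list reached 1 TPM in every library, with a median of 143 TPM. The highest was G6pc2, the islet glucose-6-phosphatase, with 1177, 1404 and 1352 TPM. Next came Ero1lb, an oxidase that forms disulfide bonds in the endoplasmic reticulum (1063, 1092 and 1118 TPM), Ucn3, a peptide of mature beta cells (546, 582 and 625 TPM), and Slc30a8, the zinc transporter of the insulin granule (527, 481 and 519 TPM). The 3 libraries lay close together for each of these.

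The glucose sensing and metabolism list as a whole was not steady: its 23 genes summed to 5100.3, 8671 and 6464 TPM, a coefficient of variation of 26.7%, with glycolytic genes such as Gapdh and Aldoa highest in replicate 2. Some of its members and the channel genes were even. The glucose transporter gene Slc2a2 was at 142, 141 and 143 TPM. The subunits of the ATP-sensitive potassium channel, Abcc8 and Kcnj11, were at 293, 301 and 315 TPM and at 96.7, 91.3 and 97.8 TPM. Among channels the calcium pump gene Atp2a2 was highest (772, 921 and 909.6 TPM), while the ryanodine receptor gene Ryr2 had 0.0242, 0.0164 and 0.0212 TPM. Glp1r, through which the incretin GLP-1 acts on beta cells, led the receptor list with 58.4, 73.7 and 80.7 TPM. No member of the channel list, and none of the receptor list, was 2-fold apart in 1 library.

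C3ar1, the receptor for C3a, was expressed at a low and even level of 4.09, 4.03 and 4.33 TPM, rank 10310. Its ligand's precursor C3 was at 10.7, 7.91 and 4.90 TPM, with no library 2-fold from both others. Of the 20 complement genes 15 reached 1 TPM in every library. The C1q genes, products of macrophages, were among the highest, with C1qa at 130, 129.7 and 122 TPM. Cfb, complement factor B, stood at 33.4, 9.61 and 6.52 TPM and was more than 2-fold higher in replicate 1.

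Genes that beta cells are known to keep silent, called disallowed genes, were low. The 20 on the list had a median of 3.47 TPM, and 13 reached 1 TPM in every library. The lactate transporter gene Slc16a1 was at 0.787, 0.771 and 0.571 TPM. The highest was Ldha, lactate dehydrogenase A, at 44.0, 86.2 and 43.5 TPM, which is also on the hypoxia list and was highest in replicate 2.

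Alpha cell markers were led by Ttr, which encodes transthyretin (1319.5, 1074 and 994 TPM), and Cltrn, a membrane protein gene formerly called Tmem27 (571, 573 and 574 TPM). Neither is limited to alpha cells. Of 12 alpha cell markers 10 reached 1 TPM in every library, and 7 had their highest CPM in replicate 1 (40.9% of all genes tested). Of 7 delta cell markers all reached 1 TPM, among them Hhex, the delta cell transcription factor (10.6, 10.8 and 12.0 TPM). By CPM, 6 of the 7 were lowest in replicate 1 (43.2% of all genes tested). The other, Rbp4, is the most abundant of the list and was highest there, with 114, 96.8 and 95.9 CPM. The somatostatin gene Sst was also highest in replicate 1, with 1645, 1374 and 1598.5 CPM.

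**Figure D2:**
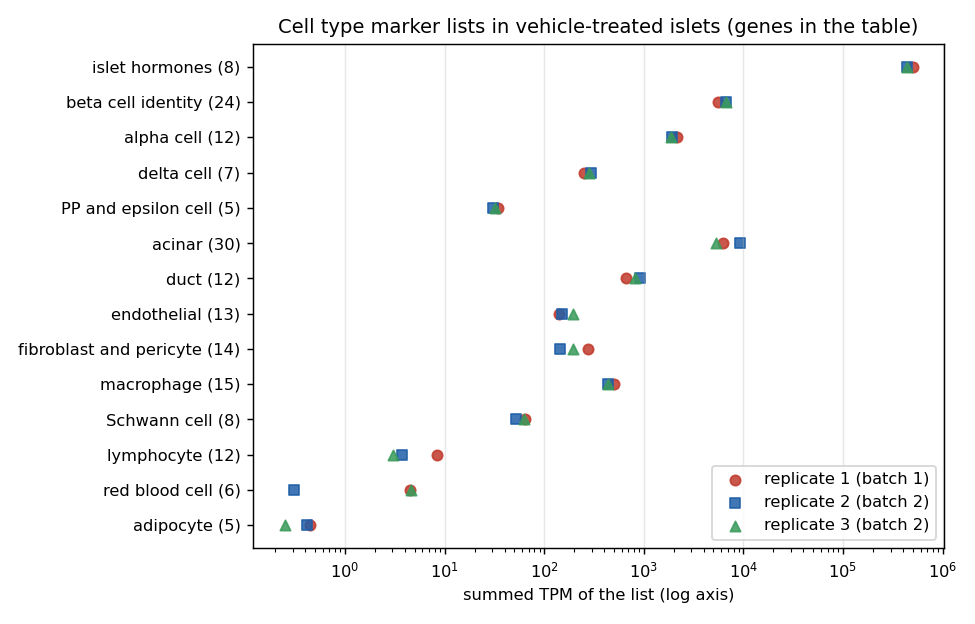
Summed TPM of each cell type marker list on a log axis, 1 point per library, with the number of list members in the table in brackets. Hormones sum to 438540 TPM or more, acinar genes reach 9321 TPM in replicate 2, and lymphocyte, red blood cell and adipocyte lists stay under 10 TPM in every library.

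Exocrine messages were the largest non-endocrine component. The 30 acinar genes summed to 6199, 9321 and 5293 TPM, and the 24 beta cell identity genes to 5535, 6693 and 6751 TPM. Their relation rests on the scale: as shares of counts, without division by length, the acinar genes averaged 4804 and the identity genes 12225 CPM. The chymotrypsinogen gene Ctrb1 led with 2176, 2984 and 1744 TPM, highest in replicate 2. The trypsinogen genes Try5 (1155, 1320.1 and 774 TPM) and Prss2 (919, 1164 and 704 TPM) followed, but Try5 shares 66.0% of its 31-base windows with other genes, mainly Try4, so the split between these is uncertain. Duct markers summed to 659, 926 and 819 TPM. The keratin genes Krt18, Krt7 and Krt8 held most of that, while the duct transcription factor gene Sox9 stayed under 1 TPM (0.464, 0.944 and 0.681 TPM). The duct sum thus rests mainly on keratins, and whether duct cells or other cells of the islets made these messages was not tested.

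Stromal, vascular and immune messages were lower. Macrophage markers summed to 506, 433 and 439 TPM, with Lyz2, the lysozyme gene, at 158, 102 and 113 TPM. Fibroblast and pericyte genes summed to 274, 145 and 194 TPM, led by the collagen gene Col3a1 (70.4, 37.9 and 52.1 TPM). Endothelial genes summed to 139.8, 149.5 and 196 TPM, led by Egfl7 (23.7, 24.5 and 31.6 TPM), with Pecam1 at 17.7, 19.5 and 22.5 TPM. Schwann cell markers summed to 64.0, 52.5 and 62.9 TPM, but the largest of them, Ncam1, is also made by endocrine cells.

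The listed lymphocyte, blood and fat markers were near the limit of detection. The lymphocyte list holds no immunoglobulin gene. Immunoglobulin genes, described further below, summed to 1177.5, 0.670 and 0.416 TPM in replicates 1, 2 and 3. The 12 lymphocyte genes summed to 8.36, 3.78 and 3.05 TPM, with Nkg7 at 0 counts in every library and Cd79a, a B cell receptor chain, the 1 member above 1 TPM in all 3. Red blood cell genes summed to 4.54, 0.310 and 4.59 TPM, with the hemoglobin gene Hbb-bs at 2.79 TPM, 0 counts and 1.25 TPM in replicates 1, 2 and 3. Adipocyte genes summed to under 1 TPM in each library, and Plin1 had 0 counts.

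The spread between the 3 libraries was set mainly by replicate 1. The common biological coefficient of variation, estimated by edgeR over 14418 genes, was 18.5%, but 7.51% when replicate 1 was left out. With sequencing batch as a term, which also leaves only the difference between replicates 2 and 3, it was 7.45%. Without replicate 2 or replicate 3 it was 21.03% or 22.2%. Genes of 100 to 1000 CPM had the lowest trended value, 12.8%, and genes of 1 to 10 CPM had 27.2%. Among the 1000 highest protein-coding genes the median coefficient of variation in CPM was 5.29% over 3 libraries and 2.29% between replicates 2 and 3.

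Among the 1000 highest protein-coding genes, those of lowest spread included Clic4 and Rps9. Clic4, an intracellular chloride channel gene, had 222.2, 221.6 and 221.6 CPM, and the ribosomal protein gene Rps9 295.7, 297.3 and 297.0 CPM. Of commonly used reference genes, Ppia, cyclophilin A, was even (332, 321 and 317 CPM) and Actb moderately so (423, 472 and 451 CPM). Gapdh was not: its 703, 1679.7 and 1068 CPM gave a coefficient of variation of 42.9%, with replicate 2 highest. Other genes, mainly a pseudogene, share 84.1% of the 31-base windows of Gapdh. For Ppia 63.55% of the windows are shared with other genes.

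Replicate 1 was at least 2-fold higher than both other libraries in 339 of 13377 genes (2.53%) and at least 2-fold lower in 159 (1.19%). Replicate 2 was higher in 38 (0.284%) and lower in 44 (0.329%), and replicate 3 higher in 6 (0.0449%) and lower in 49 (0.366%). With 1 library on a side these are counts past a fold, without a test. They depend on the filter: with a mean CPM of at least 5, replicate 1 was 2-fold apart in 201 genes, replicate 2 in 24 and replicate 3 in 21. The mean is taken over all libraries, so a gene can pass through the library where it is high.

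Many genes high in replicate 1 lie opposite an abundant gene. Of its 339 higher genes, 184 (54.3%) have an exon that overlaps an exon on the other strand, against 30.7% of all genes tested. For 117 of the 339 (34.5%) the gene on the other strand was at least 10 times as abundant in replicates 2 and 3, against 2.12% of all genes tested. Seen from the other side, replicate 1 was 2-fold higher in 41.2% of the 284 genes with so abundant a partner and in 1.67% of the 9270 genes without overlap. In the 3823 genes that overlap a less abundant partner the share was 1.75%, near that without overlap. So abundant a partner was not particular to genes high in replicate 1. It was also found for 17 of the 49 genes lower in replicate 3 (34.7%) and 8 of the 44 lower in replicate 2 (18.2%). The shares for abundant partners are partly set by the rule itself. It compares the partner with the gene's own level in replicates 2 and 3, and so favours genes that are low there. A gene low in both can pass the mean of 1 CPM through replicate 1 alone.

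Single pairs show the size of this. Snx22, a sorting nexin gene, had 42.8, 0.143 and 0.0233 CPM, while Ppib, the cyclophilin B gene that overlaps it on the other strand, had 127, 123 and 112 CPM. Serinc4 had 24.3 CPM in replicate 1, 0.204 CPM in replicate 2 and 0 counts in replicate 3, opposite Serf2 at 182, 181 and 177 CPM. Acat3 had 14.9, 0.102 and 0.0466 CPM, opposite the chaperonin gene Tcp1 at 152, 149 and 147 CPM. Acat3 shares 53.6% of its 31-base windows with other genes, mainly Acat2, so its own counts are uncertain. In each pair the partner was even across the libraries and the gene opposite it was detected mainly in replicate 1.

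The mitochondrial gene mt-Nd6, the only protein gene on the light strand of that genome, had 907.8, 12.3 and 9.97 CPM. Its annotated overlap with mt-Nd5 is 14 bases, and mt-Nd5 had 3043, 3138 and 2905 CPM. The library kit marks strand per the labels, and whether strand was used in the counting is not given in the sources used here. The part of strand in these values was not tested, and levels of genes with an abundant partner on the other strand are uncertain in replicate 1.

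**Figure D3:**
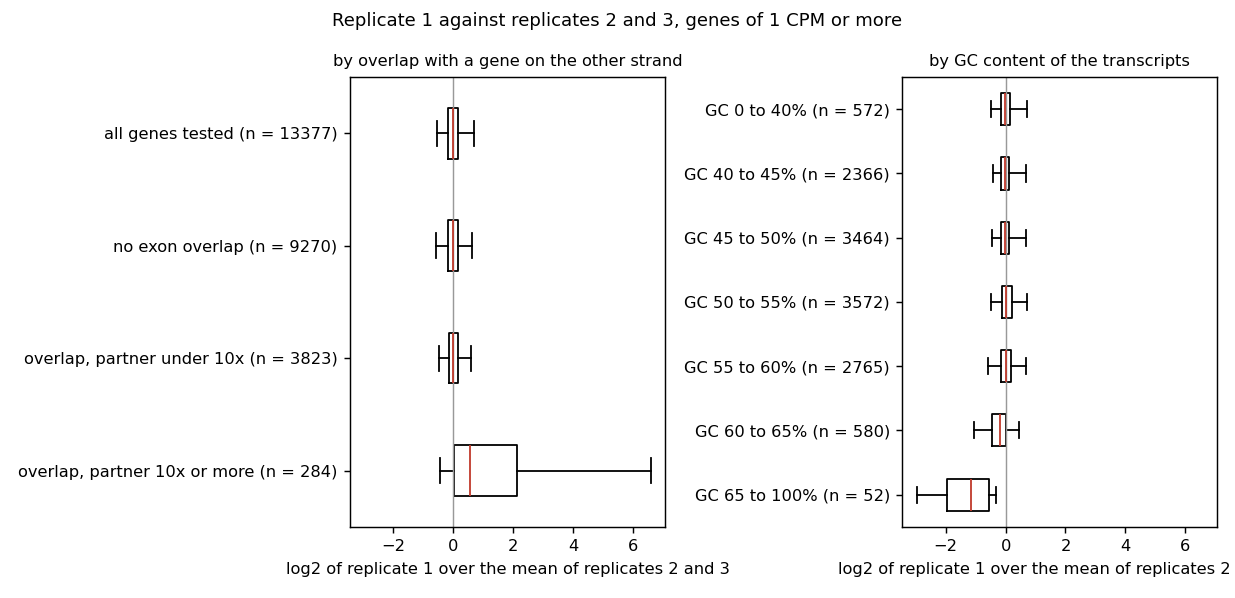
Log2 of replicate 1 over the geometric mean of replicates 2 and 3 for genes of at least 1 CPM. Genes are split by overlap with a gene on the other strand (left) and by GC content of the transcripts (right). Genes with 0 counts in a library, such as Serinc4, have no such ratio. They are left out of the boxes and medians, though counted in the gene numbers shown. Lines mark medians, boxes quartiles and whiskers the 5th and 95th percentiles. Genes with a partner 10 times as abundant have a median of 0.55, and genes of 65% GC or more a median of -1.16, while all genes tested have -0.01. The partner is compared with the gene's own level in replicates 2 and 3, so that class favours genes low there.

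Genes low in replicate 1 were rich in G and C. The 159 lower genes had a median GC content of 56.9%, against 50.4% for all genes tested. Of the 52 genes at 65% GC or more, 51 had their lowest CPM in replicate 1, 30 (57.7%) were at least 2-fold lower there, and the median log2 of replicate 1 over the others was -1.16. Genes of 60% to 65% GC had a median of -0.19, and the classes of 5 points from 40% to 60%, and that under 40%, lay within 0.03 of 0. Examples are Jund, a transcription factor gene of the AP-1 family (67.1% GC; 43.3, 205 and 200.2 CPM), Vstm2l (69.2% GC; 92.1, 266 and 263 CPM) and Scand1 (68.4% GC; 1.46, 44.5 and 42.6 CPM). Between replicates 2 and 3 the median log2 ratio of the 52 genes was -0.02. What part GC content had in the difference was not tested.

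Several transcription factor genes of the beta cell identity list were among the genes low in replicate 1. Mafa, a driver of insulin transcription in mature beta cells, had 97.6, 730 and 685 CPM and a GC content of 64.95%, just under the class above. Insm1 (171, 353 and 367 CPM, 62.0% GC), Nkx6-1 (138, 346 and 337 CPM, 59.0% GC) and Nkx2-2 (90.7, 218 and 230 CPM, 56.4% GC) were also at least 2-fold lower. These 4 were the members of the 24-gene identity list past 2-fold in that direction, against 1.19% of all genes tested. At least 60% GC was found in 2 of them, and in 60 of all 159 genes lower in replicate 1. Pdx1 was at 261, 356 and 344 CPM, not past 2-fold. Neurod1 and Isl1 did not share the pattern, with 109, 108 and 107 TPM and 87.2, 91.8 and 96.3 TPM, and neither did Ins1. Across the 24 genes, 12 had their lowest CPM in replicate 1 and 10 their highest, against 43.2% and 40.9% of all genes tested.

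Immunoglobulin messages came almost wholly from replicate 1. The 78 immunoglobulin genes in the table summed to 13969 counts there and to 12 and 9 counts in replicates 2 and 3, although these were sequenced more deeply. Ighm, the heavy chain constant gene of IgM, had 312.8, 0.0181 and 0.0420 TPM, and Igkc, the kappa light chain constant gene, 258 TPM, 0.578 TPM and 0.335 TPM. Jchain, which joins secreted antibody chains, had 25.3, 0.154 and 0.128 TPM. The B cell genes Cd79a (4.58, 2.66 and 2.22 TPM) and Ms4a1 (0.758, 0.179 and 0.166 TPM) were also highest in replicate 1, at far lower levels.

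Part of the inflammatory list was also high in replicate 1. Of 19 members of the NF-kB and inflammatory list with a mean of at least 1 CPM, 9 were at least 2-fold higher in replicate 1, against 2.53% of all genes tested, and none lower. That count is partly set by the filter. Saa3, Cxcl1 and Cxcl5 had under 1 CPM in replicates 2 and 3 and passed only through replicate 1. The other 10 did not pass 2-fold, and 4 of the 19 were lowest in replicate 1 (43.2% of all genes tested). Il1r1, the interleukin-1 receptor gene and the highest of the list, was at 237, 277 and 316 TPM. The acute phase gene Saa3 had 31.8, 0.277 and 0.449 TPM. The chemokine genes Ccl2 (21.6, 2.23 and 2.59 TPM), Cxcl1 (8.04, 0.484 and 0.486 TPM) and Cxcl5 (6.38, 0.449 and 0.271 TPM), whose products attract monocytes or neutrophils, had the same order. Icam1, an adhesion molecule gene, had 5.36, 1.49 and 1.24 TPM. None of the 9 has a partner on the other strand 10 times as abundant, against 34.5% of all genes higher in replicate 1. What part strand had in their values was not tested. The pathway's own subunit gene Nfkb1 was even at 30.2, 29.8 and 32.1 TPM.

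All 14 fibroblast and pericyte genes had their highest CPM in replicate 1, as did 18 of 19 proliferation genes and 12 of 15 macrophage genes, against 40.9% of all genes tested. Dcn, the decorin gene of fibroblasts, had 13.4, 2.48 and 2.92 TPM. The proliferation list had a median of 1.26 TPM. Its highest member was Pcna, the sliding clamp of DNA replication, at 45.4, 48.0 and 46.6 TPM, lowest in replicate 1 on that scale. Mki67, a marker of cycling cells, had 1.04, 0.999 and 0.80 TPM. The stromal, immunoglobulin and inflammatory values and the overlap and GC patterns all belong to the 1 library of batch 1, and they cannot be told apart from that batch. How far each bears on another was not tested.

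Replicate 2 was marked by hypoxia and exocrine genes. Of 24 hypoxia genes, 23 had their highest CPM there, against 30.3% of all genes tested. The list summed to 1404, 3002 and 1962 TPM, with replicate 1 lowest in 21 of the 24, against 43.2% of all genes tested. The adenylate kinase gene Ak4 had 1.03, 15.1 and 6.71 TPM, the carbonic anhydrase gene Car9 1.10, 6.87 and 1.53 TPM, and Bnip3, a mitophagy receptor gene, 76.7, 287 and 152 TPM. The glycolytic genes Pgk1 (170, 435 and 231 TPM), Eno1 (190.0, 531 and 307 TPM) and Aldoa (646, 1295 and 836 TPM) had the same order of libraries. Other genes share 68.25% of the 31-base windows of Pgk1 and 73.0% of those of Eno1.

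Acinar genes were highest in replicate 2 in 24 of 27 cases and duct genes in 8 of 9, against 30.3% of all genes tested. The remaining duct gene was Krt7, highest in replicate 3 with 284, 293 and 323 CPM. The REG genes, which encode secreted lectins of the exocrine pancreas, were among the genes most apart: Reg1 had 147, 577 and 214 TPM, Reg2 22.6, 122 and 30.8 TPM, and Reg3b 29.4, 172 and 44.8 TPM. Dmbt1, a secreted mucin-like gene, had 20.4, 76.0 and 28.1 TPM. Digestive enzymes moved less, as with Cela2a at 295, 445 and 296 TPM. Fibroblast and pericyte genes were lowest in replicate 2 in 13 of 14 cases, where 30.8% of all genes tested were lowest.

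Immediate early genes, which respond within minutes to stimulation or handling, were highest in replicate 2 in 16 of 19 cases (30.3% of all genes tested) and lowest in replicate 1 in 16 (43.2%). Fos had 4.09, 22.4 and 8.02 TPM and Egr1 5.72, 23.3 and 12.8 TPM. Of the 19, 5 were at least 2-fold lower in replicate 1, against 1.19% of all genes tested. At least 60% GC was found in 3 of these 5, and in 60 of all 159 genes lower there. Chaperones of the endoplasmic reticulum differed little, although 16 of 25 were highest in replicate 2 (30.3% of all genes tested): Hspa5, the chaperone BiP, had 1170.0, 1309 and 1161 TPM.

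**Figure D4:**
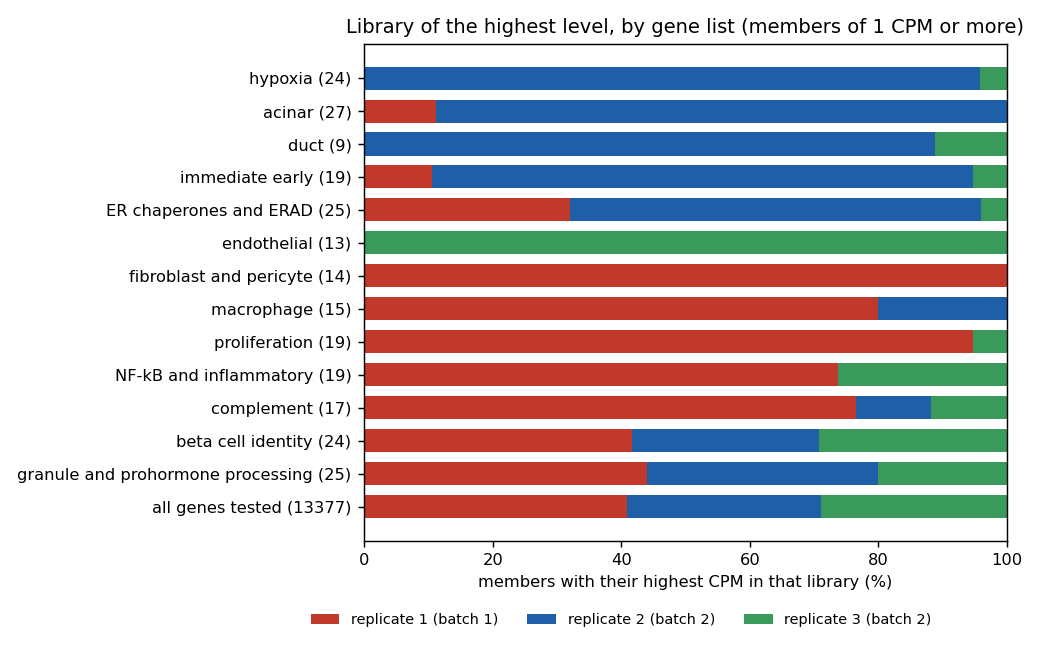
For each gene list, the share of members of at least 1 CPM whose highest CPM falls in each library, as stacked bars in percent, with the number of members in brackets. Hypoxia and acinar bars are nearly all replicate 2, the endothelial bar is all replicate 3, and the fibroblast and pericyte bar is all replicate 1, while all genes tested divide into 40.9%, 30.3% and 28.9%.

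Replicate 3 had the fewest genes at least 2-fold from both others, and the heat shock genes Hspa1a (2.49, 22.6 and 61.3 TPM) and Hspa1b (1.91, 24.9 and 53.9 TPM) were among the 6 that were higher there. Hspb1, which encodes a small heat shock protein, was also highest in replicate 3 but not past 2-fold, at 14.2, 25.4 and 45.6 TPM. Both Hspa1 genes, which encode the inducible chaperone HSP70, were also far lower in replicate 1, so no pair of libraries was alike for them. Hspa1a and Hspa1b share 65.4% and 68.0% of their 31-base windows with another gene, mainly each other, so the split of counts between them is uncertain.

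All 13 endothelial genes had their highest CPM in replicate 3, against 28.9% of all genes tested. Differences were small: Plvap, a gene of fenestrated endothelium, had 10.8, 12.5 and 18.9 TPM, Kdr, a receptor for VEGF, 10.3, 10.7 and 15.8 TPM, and Cdh5, a junction protein gene, 13.2, 16.1 and 19.1 TPM. None was 2-fold higher in replicate 3 than in both others. Acinar genes were lowest in replicate 3 in 14 of 27 cases, against 26.0% of all genes tested.

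**Figure D5:**
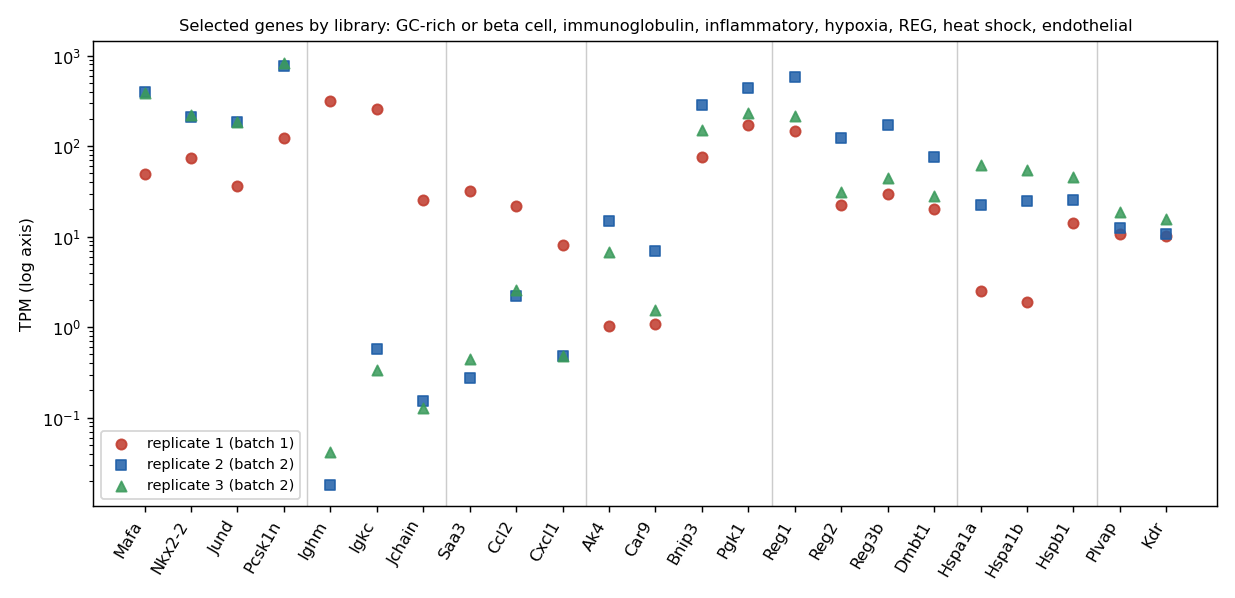
TPM on a log axis, 1 point per library, for selected genes, in blocks from left to right: GC-rich or beta cell genes, immunoglobulin genes, inflammatory genes, hypoxia genes, REG genes with Dmbt1, heat shock genes and endothelial genes. Replicate 1 is alone at the bottom of the first block and at the top of the immunoglobulin and inflammatory blocks, replicate 2 tops the hypoxia and REG blocks, and replicate 3 tops the heat shock and endothelial blocks.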

How the data were processed

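Messenger RNA libraries of 3 vehicle-treated islet samples were described. Per the labels' protocols they were made with a kit that marks strand. The authors deposited estimated counts per mouse transcript as whole numbers, not normalized, and the 9 values of 7 digits are rounded to 6 significant digits. Kallisto and DESeq2 are named, without roles or versions, with the build GRCm38, per the submitters' processing notes. The transcriptome release is not given in the sources used here, and neither is the strand setting.

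Of 71524 transcripts, 69942 had an identifier in GENCODE M21, and their counts were added up for 22141 genes. The remaining 1582, with 0.637% to 0.660% of counts, were left out. TPM used annotated exon lengths. CPM carried TMM factors, and dispersion came from edgeR 4.0.16 in R 4.3.3 with filterByExpr and an intercept alone. A library was apart if at least 2-fold higher or lower than both others in CPM, for genes with a mean of at least 1 CPM. Both steps were tested on simulated data. DESeq2 1.42.0 size factors were an alternative. GC content and overlap on the other strand came from GENCODE M21. No test between groups was made, since there was 1 group.

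Genes were named by rule: the 20 highest by TPM and 10 by CPM, the 4 highest of each list and members at 0, all hormone and Y-linked genes, C3 and C3ar1, the 8 protein-coding genes most apart per library and direction (mean of at least 5 CPM), the 10 steadiest and 10 most variable of the 1000 highest protein-coding genes, and the 10 with the largest change of rank. Predicted genes were not named outside the 20 highest, and some genes that the rule selects are left out. Other genes were named after their values were seen, to show a list or pattern: among them the overlap partners, the predicted gene Gm20388, Ighm, Igkc, Cebpb, Mki67, Saa3, Ccl2, Cxcl1, Cxcl5, Icam1, Car9, Dcn, Egr1, Kdr, Neurod1, Isl1, Nkx2-2, Nkx6-1, Insm1 and Pdx1. Members and lists were chosen with earlier results of these data known. Members Tmem27 and Fam159b were found as Cltrn and Shisal2b through RefSeq synonyms, and list members not in the table were not analysed here.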

Additional observations from a re-analysis of the deposited data

How the results depend on the processing

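No paired analysis was possible because the description covers 1 group and makes no test between groups. Shares of TPM rest on annotated length. With effective lengths (annotated length less 200 bases, plus 1) the 10 highest genes held 55.2%, the insulin genes 44.3% and the hormones 52.5% of TPM, and as shares of counts 23.5%, 14.5% and 19.8%. With Ins1 at the length of Ins2-204, added after the data were seen, the insulin genes held 42.5%. Leaving out 1 replicate at a time gave 47.4% to 50.05%, 35.8% to 38.2% and 44.1% to 47.1%.

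The coefficient of variation was 27.8% without a filter, 7.45% with batch as a term, and 7.51% to 22.2% with 1 replicate left out. Genes without overlap on the other strand, added after the data were seen, gave 16.1%, and 8.17% without replicate 1. Counts of genes 2-fold apart rest on low genes. For replicates 1, 2 and 3 they were 498, 82 and 55, and 289, 15 and 9 with a pseudocount of 2 CPM, 402, 40 and 18 with 0.5 CPM, 201, 24 and 21 with a mean CPM of at least 5, and 3292, 1616 and 1581 without a filter. Without genes that overlap on the other strand, again added later, they were 268, 65 and 32. The cause of these changes was not tested, beyond the fewer or more genes each setting counts. Leaving out a replicate gives no such count, since each needs 3 libraries. The number of genes at 1 TPM and the non-endocrine total moved by less than their limits under every alternative run. Of 91 alternatives for single marker lists 18 moved by more than 1 SD, 8 with effective lengths and 10 as shares of counts.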

Other observations

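Stress and interferon lists, not described above, had summed levels that differed little between the libraries, although single members did. The 24 integrated stress response genes summed to 1714, 1877 and 1865 TPM in replicates 1, 2 and 3. Atf4, its central transcription factor, had 250.7, 281 and 279.7 TPM, and Nupr1, a small stress-induced nuclear protein, 405, 500.3 and 450.4 TPM, which made it the highest of the list. Cebpb, a transcription factor gene on that list, was at 3.17, 30.7 and 23.0 TPM. The 22 interferon-stimulated genes summed to 148, 145 and 146 TPM, a coefficient of variation of 1.05%. By CPM, 13 of the 19 with at least 1 CPM were highest in replicate 1, against 40.9% of all genes tested.

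Lars2, the mitochondrial leucyl tRNA synthetase gene, ranked 9 by CPM and 30 by TPM, with 1919.5, 5436 and 4932 CPM, lowest in replicate 1. Galnt2, a glycosyltransferase gene, had 17.3, 152 and 146 CPM. It shares 93.7% of its 31-base windows with the predicted gene Gm20388, which had 148, 13.3 and 18.5 CPM, so that the libraries are in the opposite order for these. Prss3, an acinar trypsinogen gene, had 29.3, 2.95 and 1.47 TPM, high in replicate 1, where most acinar genes were not highest.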
